A study of Arabidopsis thaliana with 8 samples.

Results

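R-loops are structures in which an RNA strand pairs with one strand of the DNA and leaves the other strand single. They form mostly during transcription, and in plants they are known at gene starts, within genes and in repeats. DNA:RNA immunoprecipitation sequencing (DRIP-seq) maps them by pulling down the hybrid of DNA and RNA with the antibody S9.6. The peaks described here lie in protein-coding genes of the pericentromeres, the gene-poor, transposon-rich and largely heterochromatic regions that flank the centromeres and in which active genes sit as islands among silenced sequence. NODULIN HOMEOBOX (NDX) is a plant homeobox protein known for binding single-stranded DNA of an R-loop at the promoter of the antisense transcript COOLAIR of the flowering repressor gene FLC.

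The samples were 10-day-old Arabidopsis thaliana seedlings of ndx1-4, a line with a T-DNA insertion in NDX, and of the Col-0 wild type, and no other allele or agent distinguished the groups. For either genotype there were 2 libraries of the S9.6 pull-down, 1 of the input and 1 of nucleic acid treated with RNase H, the enzyme that digests the RNA of a hybrid. The values were 1 deposited peak list per genotype, with a start, an end and a score for each peak. With 1 list per genotype no difference between genotypes has an error between replicates and none was tested. The intervals given are 95% Wilson intervals that cover counting error only, and the depth behind the lists is unknown.

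A peak was a member when it lay inside one of 5 windows and shared at least 1 base with a protein-coding gene body of the RefSeq annotation. The windows were 12.6 to 17.2 Mb of chromosome 1, 1.2 to 7.1 Mb of chromosome 2, 10.7 to 16.1 Mb of chromosome 3, 2.7 to 6.1 Mb of chromosome 4 and 9.9 to 14.6 Mb of chromosome 5. They held 524 members of the 13549 peaks on chromosomes 1 to 5 in the ndx1-4 list (3.87%, 3.56 to 4.21), and 542 members of 14180 peaks in the Col-0 list (3.82%, 3.52 to 4.15). In all, the windows held 2588 peaks of the ndx1-4 list and 2687 peaks of the Col-0 list, so most pericentromeric peaks lay outside protein-coding genes. A single genic peak of the ndx1-4 list, chr1:12599981-12600300, crossed a window border and was not a member. The regions have the gene density the label implies: protein-coding gene bodies covered 15.3% of the windows and 63.9% of the chromosome arms, and the 24.0 Mb of windows held 1928 protein-coding genes beside 3404 pseudogenes.

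The sequence under these peaks was unevenly divided between the strands, with purines (A and G) gathered on one strand and pyrimidines (C and T) on the other. The member with the highest ndx1-4 score on each chromosome, among those that had a partner (a peak of the Col-0 list sharing at least 1 base) and whose middle 200 bases touched a protein-coding gene body and held no untranslated sequence, shows this. The second condition passed over AT3G29790 on chromosome 3 (score 402), whose peak has its middle outside the gene. These bases are printed on the sense strand of the gene, in TAIR10 coordinates. Capitals mark unbroken runs of at least 10 purines or at least 10 pyrimidines. The stretches are chr1:13108851-13109050 (plus strand) in ARF14, chr2:6638931-6639130 (plus) in AT2G15270, chr3:11473511-11473710 (plus) in AT3G29638, chr4:5249251-5249450 (minus) in AT4G08310 and chr5:14460911-14461110 (plus) in AT5G36740.
ARF14: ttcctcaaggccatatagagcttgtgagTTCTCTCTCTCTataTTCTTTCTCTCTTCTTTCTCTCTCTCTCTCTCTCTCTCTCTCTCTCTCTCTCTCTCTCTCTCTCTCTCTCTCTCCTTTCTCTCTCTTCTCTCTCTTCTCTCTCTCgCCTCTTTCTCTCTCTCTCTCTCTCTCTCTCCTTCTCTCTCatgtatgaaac
AT2G15270: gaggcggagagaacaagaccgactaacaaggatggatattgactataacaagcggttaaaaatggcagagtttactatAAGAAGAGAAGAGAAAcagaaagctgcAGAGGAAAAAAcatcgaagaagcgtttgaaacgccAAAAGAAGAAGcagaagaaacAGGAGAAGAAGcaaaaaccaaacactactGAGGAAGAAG
AT3G29638: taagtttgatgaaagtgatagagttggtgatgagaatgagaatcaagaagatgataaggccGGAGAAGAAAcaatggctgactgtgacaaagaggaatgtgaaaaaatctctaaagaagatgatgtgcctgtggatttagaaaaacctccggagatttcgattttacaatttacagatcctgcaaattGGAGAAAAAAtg
AT4G08310: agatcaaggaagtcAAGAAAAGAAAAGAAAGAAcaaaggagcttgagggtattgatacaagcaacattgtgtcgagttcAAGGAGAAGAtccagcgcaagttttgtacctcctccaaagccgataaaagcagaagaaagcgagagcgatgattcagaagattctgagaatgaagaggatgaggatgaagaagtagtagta
AT5G36740: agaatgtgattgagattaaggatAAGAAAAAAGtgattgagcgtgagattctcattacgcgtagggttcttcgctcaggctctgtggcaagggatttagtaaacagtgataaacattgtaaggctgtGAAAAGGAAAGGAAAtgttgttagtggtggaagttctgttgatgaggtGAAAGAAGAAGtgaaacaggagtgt

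The first stretch belongs to ARF14 (AT1G35540), which encodes an auxin response factor, a transcription factor of the hormone auxin. Intron made up 88.5% of it, and it held 24 purines and 176 pyrimidines, most of them in CT repeats on the sense strand. The peak around it was 540 bases long with score 312 in the ndx1-4 list and 500 bases long with score 292 in the Col-0 list. The other 4 stretches were all coding sequence and leaned the other way. AT2G15270 (a PRKR-interacting protein) had 150 purines, AT3G29638 (a general transcription factor 2-related zinc finger protein) 131, AT4G08310 (annotated as a DNA ligase) 139, and AT5G36740 (an N-acyltransferase with a PHD-type zinc finger) 130 of the 200 bases. In these genes the purine runs lay on the sense strand, some of them as repeats of GAA or AAG. Taken in that order of genes, their peaks had scores of 191, 267, 187 and 247 in the ndx1-4 list and 197, 275, 194 and 273 in the Col-0 list. Scores were read within a list only, since what 1 unit stands for is not given in the sources used here. The peak in AT5G36740 consisted entirely of sequence found more than once in the genome, so its reads cannot be assigned to that copy alone.

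Across all members the imbalance was common in both genotypes. The number of purines and of pyrimidines on the sense strand, in the middle 200 bases, differed by more than 20% of the bases in 54.4% of 524 ndx1-4 members and 57.0% of 542 Col-0 members. Among 16213 stretches of 200 bases that no peak of either list touched, 8.59% did. These were taken from all protein-coding genes of the windows, with or without a member. The genic peaks of the arms gave nearly the same shares, 54.0% in the ndx1-4 list and 55.3% in the Col-0 list, beside 9.15% of 273131 unpeaked stretches, so the imbalance was not particular to pericentromeric genes. It went both ways. In the ndx1-4 list 134 members were purine-rich and 151 pyrimidine-rich on the sense strand, and in the Col-0 list 157 were purine-rich and 152 pyrimidine-rich.

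Members whose middle was entirely coding were mostly purine-rich. Of 104 such ndx1-4 members 61 were purine-rich on the sense strand and 17 pyrimidine-rich, and of 115 such Col-0 members 72 were purine-rich and 19 pyrimidine-rich. Of the 3664 unpeaked, entirely coding stretches of all window genes only 13.4% passed the limit in either direction. The difference was thus also seen within coding sequence. Of those stretches 302 were purine-rich and 190 pyrimidine-rich. Entirely coding middles of arm peaks were purine-rich in 832 and pyrimidine-rich in 118 of 1320 cases in ndx1-4. In Col-0 they were purine-rich in 955 and pyrimidine-rich in 120 of 1454. The lean to purines in coding sequence was thus not particular to these members. Members over a gene start leaned to pyrimidines: 18 of 144 ndx1-4 members were purine-rich and 50 pyrimidine-rich, and 21 of 147 Col-0 members were purine-rich and 52 pyrimidine-rich. At gene ends the direction was turned, with 19 purine-rich and 8 pyrimidine-rich of 51 members in the ndx1-4 list and 20 purine-rich and 7 pyrimidine-rich of 55 in the Col-0 list. Gene starts and ends without a peak were not measured apart, so these directions may belong to the position rather than to the peaks.

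Runs of at least 10 purines or pyrimidines covered a mean of 13.3% ± 10.4 of the middle of ndx1-4 members and 13.8% ± 10.7 of the middle of Col-0 members (SD over members), against 3.95% ± 5.31 of the unpeaked stretches. The 3 short words searched were counted on either strand. GAAGAAGAA (or TTCTTCTTC) lay in 17.2% of ndx1-4 members, 18.6% of Col-0 members and 2.89% of unpeaked stretches, and in the arms it lay in 22.1% of genic ndx1-4 peaks and 22.5% of genic Col-0 peaks. CTCTCTCT (or AGAGAGAG) lay in 12.8% of ndx1-4 members, 12.4% of Col-0 members and 2.65% of unpeaked stretches, and AAAAAAAA (or TTTTTTTT) in 18.9% of ndx1-4 members, 18.1% of Col-0 members and 8.44% of unpeaked stretches. Genic peaks of the arms were alike, with CTCTCTCT in 13.5% in ndx1-4 and 13.7% in Col-0, and AAAAAAAA in 18.4% in both. Runs covered a mean of 13.7% of their middle in ndx1-4 and 13.9% in Col-0. CTCTCTCT was most frequent over gene starts, in 23.6% of ndx1-4 and 23.1% of Col-0 members there. Unpeaked stretches were not measured at gene starts apart, so a difference from gene starts without a peak was not tested. A match describes the letters and is no sign of a bound factor. GC content was slightly lower under the peaks, at 36.2% ± 5.19 for ndx1-4 members and 36.3% ± 5.10 for Col-0 members, with 38.5% ± 6.53 in the unpeaked stretches.

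The imbalance was more frequent the higher the score of the peak. The scores of each whole list were divided into 4 bins of about equal size. From the lowest bin to the highest, the imbalance passed 20% in 39.0%, 50.0%, 58.1% and 71.8% of ndx1-4 members and in 41.3%, 54.2%, 59.5% and 73.4% of Col-0 members. The lowest bin of either list stood well above the 8.59% of unpeaked stretches. The share of members with a partner in the other list also varied with the score, with a different course at the top of the 2 lists. In the ndx1-4 list 80.1%, 90.7%, 98.4% and 97.7% of members had a partner from the lowest to the highest bin. In the Col-0 list the shares were 75.3%, 94.9%, 96.9% and 88.1%, so the highest bin lay below the bin before it.

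**Figure D1:**
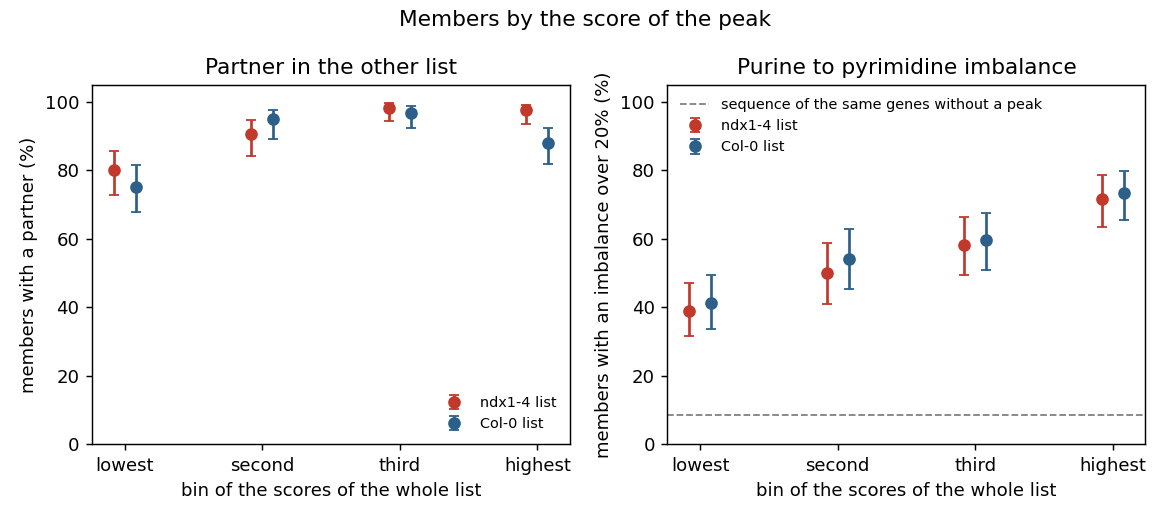
Left, share of members (%) that share at least 1 base with a peak of the other list; right, share of members (%) whose middle 200 bases have a purine to pyrimidine imbalance over 20%, both by bin of the scores of the whole list (ndx1-4 red, Col-0 blue; bars are 95% Wilson intervals; the dashed line at 8.59% is unpeaked sequence of all protein-coding genes of the windows). The imbalance climbs from 39.0% to 71.8% of ndx1-4 members and from 41.3% to 73.4% of Col-0 members, and the share with a partner in the highest bin is 97.7% in ndx1-4 and 88.1% in Col-0.

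The number of members differed little between the genotypes. The ndx1-4 list had 18 members fewer, a ratio of 0.967 to Col-0 (0.857 to 1.09), an interval that includes equal numbers. For the genic peaks of the arms, 8082 in ndx1-4 and 8549 in Col-0, the ratio was 0.945 (0.917 to 0.975), which lies within the interval of the members. The members covered 207780 bases in ndx1-4 and 227340 bases in Col-0, a ratio of 0.914, beside 0.920 for the arm peaks. Of all bases under a member of either list, 76.5% were under a peak, member or not, of both lists (79.4% for genic peaks of the arms). The median length was 340 bases (quartiles 260 and 500) in ndx1-4 and 360 bases (260 and 500) in Col-0. Long members were fewer in ndx1-4: 132 members (25.2%) in ndx1-4 reached 500 bases, against 147 (27.1%) in Col-0, and 7 in ndx1-4 reached 1000 bases, against 15 in Col-0. The same direction was seen in the arms. There 23.9% of genic peaks in ndx1-4 and 26.3% in Col-0 reached 500 bases, and 165 in ndx1-4 and 218 in Col-0 reached 1000 bases.

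All 5 chromosomes had fewer members in the ndx1-4 list, by 1 to 8 peaks. The whole ndx1-4 list was shorter too, at a ratio of 0.956 to Col-0. Chromosome 1 held 101 members in ndx1-4 and 102 in Col-0, chromosome 2 held 161 in ndx1-4 and 164 in Col-0, chromosome 3 held 106 in ndx1-4 and 109 in Col-0, chromosome 4 held 63 in ndx1-4 and 66 in Col-0, and chromosome 5 held 93 in ndx1-4 and 101 in Col-0. Per megabase of window, chromosome 2 was the densest, with 27.3 members in ndx1-4 and 27.8 in Col-0, and chromosome 4 the sparsest, with 18.5 in ndx1-4 and 19.4 in Col-0. Per gene the chromosomes were alike: between 23.6% and 25.6% of window genes carried a member in ndx1-4, and between 23.1% and 27.5% in Col-0. On chromosome 2 slightly more genes carried one in ndx1-4 (151) than in Col-0 (148). The lowest share of members with a partner was that of the Col-0 list on chromosome 5, 83.2%, where the ndx1-4 list had 90.3%.

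Of the 1928 protein-coding genes of the windows, 467 carried a member in ndx1-4 (24.2%, 22.4 to 26.2) and 479 in Col-0 (24.8%, 23.0 to 26.8). Over all 27444 protein-coding genes the share with a peak was 28.2% in ndx1-4 and 29.6% in Col-0, so pericentromeric genes carried a peak somewhat less often than the whole set in both lists. The same gene usually carried one in both genotypes: of 512 window genes with a member in either list 434 did, 33 carried one in ndx1-4 alone and 45 in Col-0 alone. Of the 8552 protein-coding genes with a peak anywhere on chromosomes 1 to 5, 7313 had one in both lists, 423 in ndx1-4 alone and 816 in Col-0 alone. Most window genes with a member had a single one, 405 genes in ndx1-4 and 412 in Col-0. Genes with 2 numbered 56 in ndx1-4 and 59 in Col-0. Those with 3 numbered 5 in ndx1-4 and 7 in Col-0, and 1 gene had 4 in both lists. A member over 2 genes at once was rare, 12 in ndx1-4 and 13 in Col-0.

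Pericentromeric genes were shorter than arm genes, with a median of 1536 bases against 2107, and 33.4% against 14.6% were under 1 kb. Within classes of length their share with a peak came close to that of arm genes. Of genes under 1 kb, 10.1% in ndx1-4 and 10.4% in Col-0 carried a member in the windows, beside 11.9% in ndx1-4 and 13.0% in Col-0 in the arms. Of genes of 1 to 2 kb the shares were 24.4% in ndx1-4 and 24.8% in Col-0, beside 22.3% in ndx1-4 and 23.2% in Col-0 in the arms. Of genes of 2 to 4 kb they were 34.0% in ndx1-4 and 34.9% in Col-0, beside 34.3% in ndx1-4 and 35.9% in Col-0 in the arms. Of the 179 window genes of 4 kb or more, 44.7% in ndx1-4 and 46.4% in Col-0 carried a member, beside 44.8% in ndx1-4 and 47.9% in Col-0 in the arms. The share thus varied more with gene length than between the regions or the lists. By distance from the nearest window border the share showed no steady course. It was 23.9% in ndx1-4 and 24.7% in Col-0 within 0.5 Mb, 26.7% in ndx1-4 and 27.5% in Col-0 from 0.5 to 1 Mb, and 26.6% in ndx1-4 and 27.9% in Col-0 from 1 to 1.5 Mb. It was lowest from 1.5 to 3 Mb, at 19.6% (15.9 to 24.0) in ndx1-4 and 19.1% (15.4 to 23.4) in Col-0, intervals that overlap those of the outermost genes (21.1 to 27.1 in ndx1-4, 21.8 to 27.9 in Col-0). In Col-0 this lowest interval lay below that of the genes from 0.5 to 1 Mb (23.7 to 31.7). In ndx1-4 it overlapped the interval of those genes (23.0 to 30.8). The innermost genes were also the shortest, with a median of 1126 bases, against 1680 bases for the outermost.

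**Figure D2:**
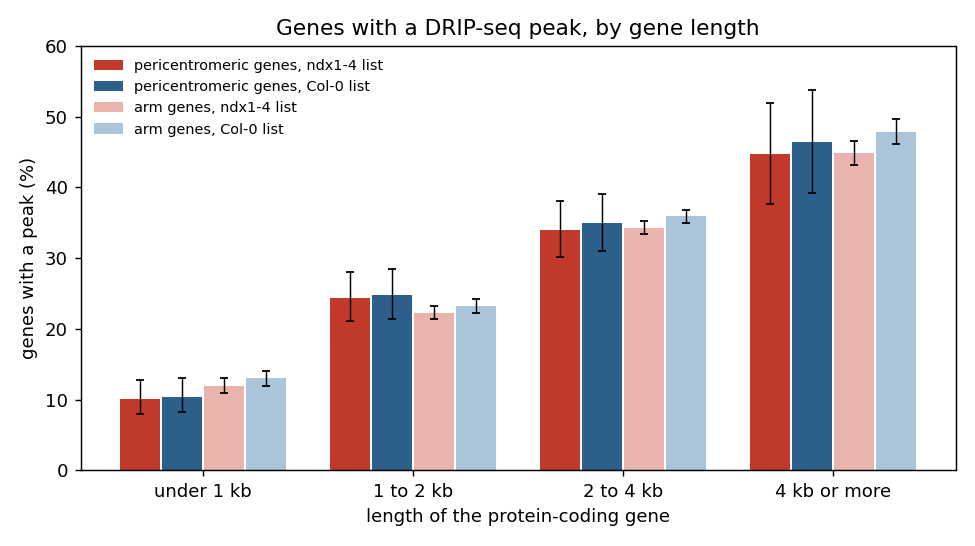
Share of protein-coding genes with at least 1 peak (%), by gene length, for pericentromeric genes (dark) and arm genes (light) in the ndx1-4 list (red) and the Col-0 list (blue); bars show the share and its 95% Wilson interval. The share climbs in pericentromeric genes from 10.1% in ndx1-4 and 10.4% in Col-0 under 1 kb to 44.7% in ndx1-4 and 46.4% in Col-0 at 4 kb or more, and the intervals of pericentromeric genes overlap those of arm genes in every class.

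Within genes the 5' untranslated region (5' UTR) was the part most often under a peak. In the windows 14.6% of 5' UTR bases lay under a peak in ndx1-4 and 14.9% in Col-0, against 4.76% of all gene body bases in ndx1-4 and 5.19% in Col-0, a fold of 3.08 in ndx1-4 and 2.87 in Col-0. Coding sequence (CDS) followed with 4.39% in ndx1-4 and 5.01% in Col-0, then introns with 3.52% in ndx1-4 and 3.76% in Col-0, and 3' UTRs with 3.44% in ndx1-4 and 3.66% in Col-0. Compared with the arms, the windows had more of their coding bases under a peak (arms 3.67% in ndx1-4 and 4.08% in Col-0) and a similar share of 5' UTR bases (arms 14.9% in ndx1-4 and 15.9% in Col-0). Of the covered gene bases of the windows 47.2% were CDS in ndx1-4 and 49.4% in Col-0, while CDS made up 51.1% of the gene bases there. In the arms the CDS share of covered bases was 41.4% in ndx1-4 and 42.2% in Col-0, although CDS was a like share of all gene bases, 52.3%. The 5' UTR share of covered bases was 22.1% in ndx1-4 and 20.6% in Col-0 in the windows, beside 29.5% in ndx1-4 and 28.8% in Col-0 in the arms. Annotated 5' UTR was itself scarcer in the windows, at 7.19% of gene bases against 9.18% in the arms.

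**Figure D3:**
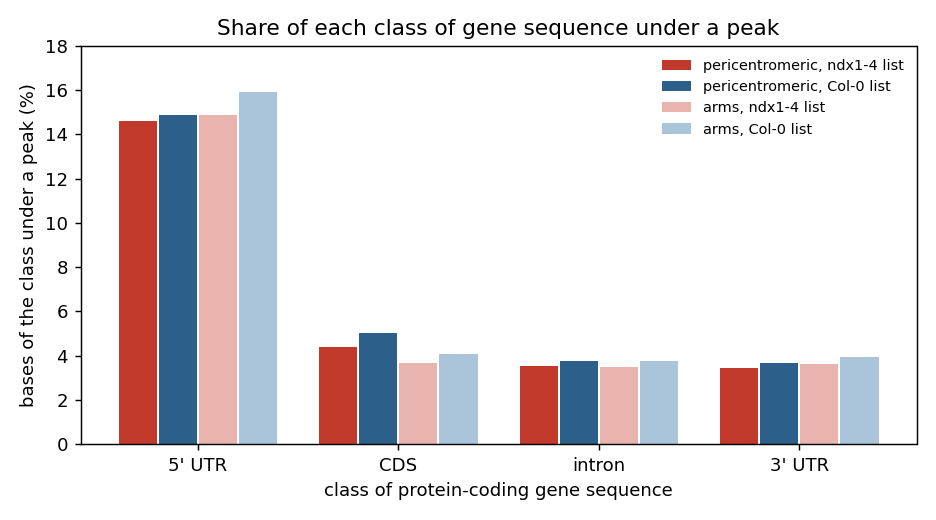
Share of the bases of each class of protein-coding gene sequence that lay under a peak (%), in the pericentromeric windows (dark) and in the arms (light), for the ndx1-4 list (red) and the Col-0 list (blue); each bar is 1 list and has no replicate error. The 5' UTR stands at 14.6% in ndx1-4 and 14.9% in Col-0 in the windows, and all other classes lie at or below 5.01%.

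Gene starts were the position of highest coverage. Between 100 and 200 bases downstream of the start 9.71% of bases lay under a peak in ndx1-4 and 10.0% in Col-0, for the 1928 genes of the windows. The same bin was the maximum in the arms, at 11.5% in ndx1-4 and 12.1% in Col-0. Gene ends had no such maximum. By position, 144 members (27.5%, 23.8 to 31.5) covered a gene start in ndx1-4 and 147 (27.1%) in Col-0. A gene end was covered by 51 (9.73%) in ndx1-4 and 55 (10.1%) in Col-0, and both a start and an end by 9 in ndx1-4 and 8 in Col-0. The rest, 320 (61.1%) in ndx1-4 and 332 (61.3%) in Col-0, lay inside a gene without reaching a start or an end. The division in the arms was alike, with 26.6% of genic peaks over a gene start in ndx1-4 and 26.7% in Col-0. Members over gene starts were longer than those inside genes, with a median of 410 bases against 320 in ndx1-4 and 420 against 320 in Col-0.

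**Figure D4:**
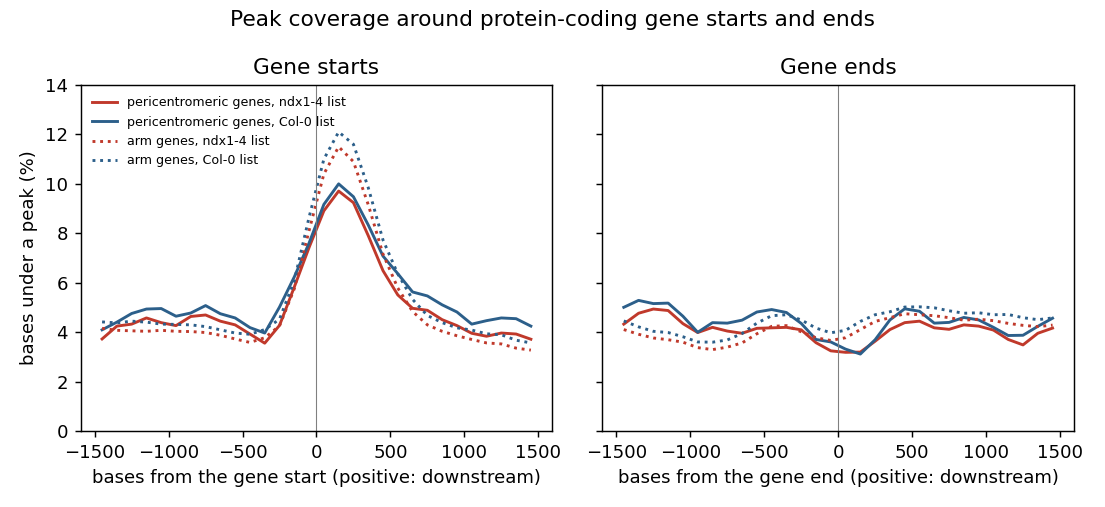
Share of bases under a peak (%) in bins of 100 bases around the start (left) and the end (right) of protein-coding genes, for pericentromeric genes (solid) and arm genes (dotted) in the ndx1-4 list (red) and the Col-0 list (blue); each line is 1 list. At the start the lines of pericentromeric genes reach 9.71% in ndx1-4 and 10.0% in Col-0, 100 to 200 bases downstream, and lie below those of arm genes (11.5% in ndx1-4 and 12.1% in Col-0), while no maximum stands at the end.

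Among 18 well-studied genes listed for these windows, 17 were matched, and 8 carried a member in ndx1-4 and 9 in Col-0, 8 of them in both. Over all window genes the share was 24.2% in ndx1-4 and 24.8% in Col-0. All of the 17 but PR1 and LSH1 were longer than the median window gene of 1536 bases, and the list was not tested against genes of its length. Most of these peaks sat at the gene start. CRY1, the blue light receptor cryptochrome 1, had a peak of the same edges in both lists, chr4:5723561-5723880, with score 80 in ndx1-4 and 90 in Col-0, over the 5' UTR. SEU, which encodes the transcriptional co-regulator SEUSS, had a gene-start peak of 760 bases in ndx1-4 and 800 bases in Col-0, with score 112 in both. KNAT1, a homeobox gene of the shoot meristem, had one of 900 bases (score 156) in ndx1-4 and 940 bases (score 163) in Col-0. The Col-0 peak covered 23.7% of the gene body.

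LSH1, named for its short hypocotyls in the light, had a peak of 700 bases (score 145) in ndx1-4 and 720 bases (score 135) in Col-0 at its start. AGT, alanine:glyoxylate aminotransferase of photorespiration, had one of 420 bases in either list (score 84 in ndx1-4, 93 in Col-0). CH1, which encodes chlorophyllide a oxygenase of chlorophyll b synthesis, had a peak inside the gene of 220 bases in ndx1-4 and 260 bases in Col-0. DRP3B, a dynamin-related protein that divides mitochondria and peroxisomes, had one within an intron, 200 bases in ndx1-4 and 240 bases in Col-0. ERD5, proline dehydrogenase, had a peak in Col-0 only, of 200 bases with score 76 over the gene end. The genes PHYC (phytochrome C), NIA2 (nitrate reductase), GAPB, PR1, MEKK1, UBQ10, CAS1 and CUE1 had none in either list, so well-known and, as background, highly expressed genes such as UBQ10 and GAPB were among those without a peak.

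AN3, also called GIF1, is a co-activator of growth-regulating factors in leaf growth. Among the listed genes with a member in both lists, its peaks differed most in length. Its peak was chr5:10649161-10650100 in ndx1-4, 940 bases that reached past the gene start (score 144), and chr5:10649061-10649760 in Col-0, 700 bases that began 306 bases inside it (score 164). Both lay mainly over 5' UTR, at 86.5% of the ndx1-4 peak and 86.7% of the Col-0 peak.

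The auxin response factor genes of the windows mostly carried a member in both lists. ARF14 is described above. ARF20 had a peak of 540 bases (score 237) in ndx1-4 and 520 bases (score 231) in Col-0, and ARF15 one of 420 bases in either list (score 149 in ndx1-4, 157 in Col-0). The fourth gene of this name pattern, ARF23, had none, so 3 of 4 carried a member in both genotypes. Between 44.7% and 52.3% of the 31-base words in these peaks of ARF20 and ARF15 occurred elsewhere in the genome, and 44.9% in the ndx1-4 peak of ARF14. This family was singled out after its values were seen.

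Other families, taken from words in the annotated product, ranged widely. All 6 Ulp1 protease genes carried a member in both lists, a share of 100% (61.0 to 100). Ulp1 enzymes cleave the protein tag SUMO in yeast, and genes with this domain are also found in plant transposons of the Mutator type. All 6 peaks lay inside the gene. In AT3G31910 the peak was 720 bases (score 130) in ndx1-4 and 700 bases (score 129) in Col-0, and in AT5G28810 it was 580 bases (score 188) in ndx1-4 and 560 bases (score 184) in Col-0. In 3 of the 6 genes, AT2G10260, AT2G10625 and AT3G31910, the peak held no multi-copy word, while in AT5G28235 89.8% of its words were multi-copy. Genes named for transposases, hAT elements or reverse transcriptases carried a member in 8 of 33 cases in ndx1-4 and 7 of 33 in Col-0.

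The least peaked family was that of the small cysteine-rich defensin-like, ECA1 and LCR peptides, with 3 of 73 genes (4.11%, 1.41 to 11.4) in ndx1-4 and 2 of 73 (2.74%, 0.755 to 9.45) in Col-0. These genes had a median length of 416 bases. F-box genes, whose products select proteins for ubiquitination, carried one in 6 of 47 cases (12.8%, 5.98 to 25.2) in either list, among them FBW2 with 2 members in both. Kinase genes did in 18 of 49 cases (36.7%) in ndx1-4 and 16 of 49 (32.7%) in Col-0. Among them were HK2, a cytokinin receptor with a peak of 580 bases in ndx1-4 and 460 bases in Col-0, and SERK4, a co-receptor in brassinosteroid and immune signalling, with 480 bases in ndx1-4 and 420 bases in Col-0. Genes matched by transcription factor and zinc finger words carried one in 24 of 68 cases (35.3%) in ndx1-4 and 26 of 68 (38.2%) in Col-0, and RING and PHD finger proteins, which need not be transcription factors, are among them. AGL44, a MADS-box gene of the nitrate response of roots, had a peak inside the gene of 240 bases in ndx1-4 and 280 bases in Col-0.

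Disease resistance genes of the NBS-LRR and TIR classes carried a member in 5 of 12 cases in both lists, pentatricopeptide repeat genes in 4 of 12, ribosomal protein genes in 4 of 16, cytochrome P450 genes in 2 of 15 and genes annotated as transmembrane proteins in 4 of 9. Except for the Ulp1, the F-box and the cysteine-rich peptide genes, the intervals of these named families included the shares over all genes. The F-box interval also included the shares over all window genes, 24.2% in ndx1-4 and 24.8% in Col-0. In the arms the shares were low for F-box genes too, 13.9% in ndx1-4 and 15.0% in Col-0, and for the cysteine-rich peptide genes, 6.97% in ndx1-4 and 7.46% in Col-0. Genes with an uncharacterized or hypothetical product, 470 in number and with a median length of 851 bases, fell below those shares, with 72 (15.3%, 12.3 to 18.9) in ndx1-4 and 75 (16.0%, 12.9 to 19.5) in Col-0.

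AT1G42470, a Patched family protein gene of 8854 bases, carried the most members, 4 in each list. They lay at the start and at 3 places inside the gene, with scores of 126, 77, 87 and 80 in ndx1-4 and 135, 79, 95 and 89 in Col-0 from the start onward. CHR38, better known as CLASSY1 (CLSY1), a remodeler-like protein of RNA-directed DNA methylation, had 3 in both lists. They were at the start (420 bases in either list), within coding sequence (200 bases in ndx1-4, 220 bases in Col-0) and at the gene end (340 bases in ndx1-4, 360 bases in Col-0). AT1G35150 and AT4G05360, a general transcription factor 2-related and a CCHC-type zinc finger gene, also had 3 in both. AT2G16210, a B3 transcription factor gene, had 3 in ndx1-4 and 2 in Col-0, and the extra one, of 280 bases with score 81, lay 1115 bases inside the gene.

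Peaks found in both lists mostly had similar lengths. Of 469 pairs in which each peak had the other as its sole partner, 107 (22.8%) had the same edges and 83.6% had lengths within 40 bases of each other, which is 2 steps of the grid of 20 bases on which peak edges lie. The ndx1-4 peak was the longer in 126 pairs (26.9%), the Col-0 peak in 197 (42.0%), and 146 were equal. The mean difference, ndx1-4 minus Col-0, was -6.06 ± 55.8 bases (SD over pairs), beside -7.94 ± 57.9 bases for 7427 pairs of the arms. The small excess of longer Col-0 peaks was thus found in both regions.

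**Figure D5:**
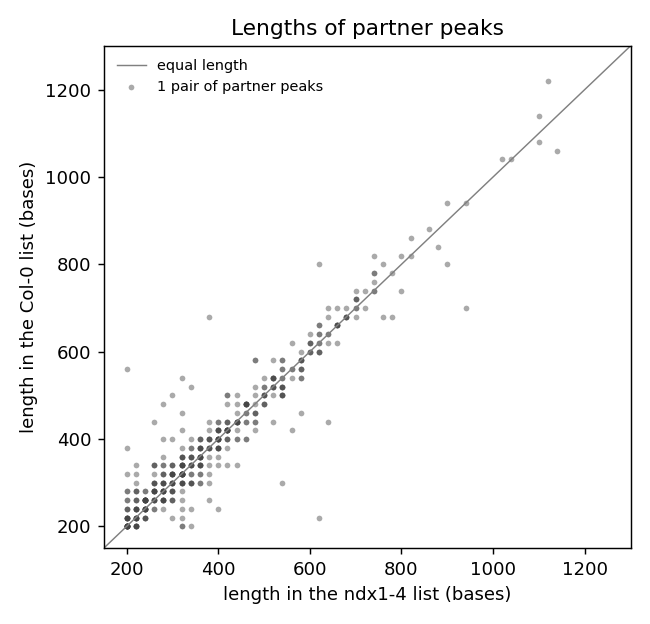
Length in the ndx1-4 list (horizontal, bases) against length in the Col-0 list (vertical, bases) of the 469 one-to-one pairs of partner peaks in pericentromeric genes; each point is a pair, darker points are several pairs, and the line marks equal length. Most points lie on or next to the line, with 83.6% of pairs within 40 bases, and the few far from it include AT4G05380 (200 bases in ndx1-4, 560 in Col-0) and AT1G35780 (620 bases in ndx1-4, 220 in Col-0).

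The pairs that departed most from equal length had scores of 69 to 104, apart from AN3. AT4G05380, a P-loop nucleotide hydrolase gene, had 200 bases (score 88) in ndx1-4 and 560 bases (score 104) in Col-0 at its start. The first peak of AT4G05360 had 380 bases in ndx1-4 and 680 in Col-0, and that of AT5G35680, an OB-fold nucleic acid-binding protein gene, 320 in ndx1-4 and 540 in Col-0. The peak of AT2G06675 had 300 bases in ndx1-4 and 500 in Col-0, and that of AT4G07995 280 in ndx1-4 and 480 in Col-0. Among those longer in ndx1-4, AT1G35780, annotated as an N-lysine methyltransferase, had 620 bases (score 79) in ndx1-4 and 220 bases (score 87) in Col-0. The peak of iqd33, a calmodulin-binding IQ-domain protein, had 540 bases in ndx1-4 and 300 in Col-0. AIG2 had 640 in ndx1-4 and 440 in Col-0, and the second peak of AT1G42470 had 400 in ndx1-4 and 240 in Col-0. AN3, described above, was the remaining one of these 5.

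A partner in the other list was found for 479 ndx1-4 members (91.4%, 88.7 to 93.5) and 478 Col-0 members (88.2%, 85.2 to 90.6), which left 45 members without one in ndx1-4 and 64 in Col-0. The arm peaks had a partner in 93.3% of cases in ndx1-4 and 88.1% in Col-0. Members without a partner were short on the median, 220 bases in both lists, where those with one had 360 bases. Their upper quartile was 240 bases in ndx1-4 and 560 bases in Col-0. Their scores were also low on the median, 74.0 in ndx1-4 and 76.0 in Col-0, but 3 of the 45 in ndx1-4 and 17 of the 64 in Col-0 lay in the highest score bin of their own list.

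In the ndx1-4 list 3 members of the highest score bin had no partner. AT3G29075, a glycine-rich protein gene, carried the highest-scoring member of the list, chr3:11051561-11052160 (600 bases, score 407), and the nearest Col-0 peak lay 17620 bases away. CSLC12, a cellulose synthase-like gene of xyloglucan synthesis, had a gene-start peak of 640 bases (score 163). AT2G05580, a second glycine-rich protein gene, had 340 bases (score 149), all coding. The next by score were ILL6, an amidohydrolase of auxin and jasmonate conjugates (400 bases, score 116), and AT3G42075 (420 bases, score 113), both at gene starts.

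Genic arm peaks of the highest score bin had no partner in 20 of 2048 cases in ndx1-4 and 189 of 2126 in Col-0. In the Col-0 list 17 of the 143 members of this bin had no partner. AT2G11570 and AT2G11620, uncharacterized genes near each other on chromosome 2, carried the 2 highest-scoring members of that list, with scores of 473 (1340 bases, chr2:4633481-4634820) and 465 (980 bases, chr2:4657561-4658540). The nearest ndx1-4 peak lay 180 bases from the first, in the same gene (chr2:4635001-4635260, 260 bases, score 70), and 6360 bases from the second. AT5G28300, a gene of the duplicated homeodomain-like family, had 1200 bases (score 395), 86.1% of them coding. AT5G28630, a glycine-rich protein gene next in rank, had 740 bases (score 343), and AT2G04620, a zinc transporter-like gene, 820 bases (score 321), all coding. Others of the 17 lay in the growth-regulating factor gene GRF6 (1200 bases, score 292, with an ndx1-4 member 320 bases away), the extensin-like cell wall gene EXT13 (1020 bases, score 291) and the pectin synthesis gene XGD1 (800 bases, score 257). The longest Col-0 member, 1740 bases over AT2G12875 and AT2G12880 (score 201), was among them too. Over the 17 the gap to the nearest ndx1-4 peak ran from 60 bases in AT5G36670 to 26360 bases for the last named, so absence of a partner is not absence of an ndx1-4 peak nearby.

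Members without a partner passed the 20% limit of imbalance in 42.2% of cases in ndx1-4 and 51.6% in Col-0, where those with a partner did in 55.5% of cases in ndx1-4 and 57.7% in Col-0. To show those that did carry high scores, the 2 highest-scoring members of either list without a partner whose middle touches a gene body and holds no UTR base are printed in the same way: chr3:11051761-11051960 (minus strand) in AT3G29075 and chr2:2056091-2056290 (plus) in AT2G05580 from the ndx1-4 list, chr5:10293721-10293920 (minus) in AT5G28300 and chr5:10636791-10636990 (plus) in AT5G28630 from the Col-0 list. The peaks of AT2G11570 and AT2G11620 have higher scores in Col-0 but their middle outside the gene, and are not shown. The 4 sequences were chosen after the values were seen, so their composition is a description of these members alone.
AT3G29075: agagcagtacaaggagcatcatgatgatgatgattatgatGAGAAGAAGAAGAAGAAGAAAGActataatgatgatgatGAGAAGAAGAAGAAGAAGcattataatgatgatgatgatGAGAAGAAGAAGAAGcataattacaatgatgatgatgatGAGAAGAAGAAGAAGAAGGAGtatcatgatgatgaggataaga
AT2G05580: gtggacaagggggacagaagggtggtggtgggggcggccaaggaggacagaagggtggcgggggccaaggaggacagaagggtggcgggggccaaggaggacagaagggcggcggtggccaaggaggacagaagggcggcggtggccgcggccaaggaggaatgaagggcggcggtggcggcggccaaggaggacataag
AT5G28300: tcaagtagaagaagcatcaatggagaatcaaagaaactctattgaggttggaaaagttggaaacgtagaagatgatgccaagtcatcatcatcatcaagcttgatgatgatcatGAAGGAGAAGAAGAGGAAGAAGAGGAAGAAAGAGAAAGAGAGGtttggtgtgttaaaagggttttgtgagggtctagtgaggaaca
AT5G28630: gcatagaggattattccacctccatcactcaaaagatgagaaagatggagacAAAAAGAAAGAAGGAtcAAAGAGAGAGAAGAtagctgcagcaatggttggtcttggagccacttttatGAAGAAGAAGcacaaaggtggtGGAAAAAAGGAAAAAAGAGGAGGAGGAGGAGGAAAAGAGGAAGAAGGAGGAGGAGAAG

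All 4 stretches were coding and purine-rich on the sense strand. Purines made up 153 of 200 bases in AT3G29075 and 156 in AT2G05580, found in ndx1-4 only, and 140 in AT5G28300 and 153 in AT5G28630, found in Col-0 only. In AT3G29075 blocks of repeated AAG alternate with blocks of repeated GAT, and the stretch of AT2G05580 is G-rich, with 70.0% GC and no purine run of 10 bases. Of the 17 high-scoring Col-0 members without a partner 82.4% passed the 20% limit, 7 of them purine-rich and 7 pyrimidine-rich on the sense strand.

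The other leading members were shared. AT3G29790, an uncharacterized gene, had score 402 in ndx1-4 and 425 in Col-0 with 600 bases in ndx1-4 and 620 in Col-0 at its start. The gene-start peak of AT3G30580 had score 279 in ndx1-4 and 303 in Col-0, and that shared by AT3G29280 and emb2076, a pentatricopeptide repeat gene needed for embryo development, had score 271 in ndx1-4 and 282 in Col-0 with 660 bases in either list. Among the longest members were those of AT1G43770 (1140 bases in ndx1-4, 1060 in Col-0), AT1G37020 (1120 in ndx1-4, 1220 in Col-0), AT3G29638 (1100 in ndx1-4, 1080 in Col-0), the Mediator subunit-like gene AT4G08510 (1100 in ndx1-4, 1140 in Col-0) and the splicing factor gene PRP40A (1040 in both). A Col-0 member of 1400 bases in AT1G44810 corresponded to 3 ndx1-4 members of 480, 420 and 280 bases, and one of 1280 bases in AT5G36780, all multi-copy sequence, to 2 of 1000 and 240 bases.

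Compared with genic peaks of the arms, members lay nearer to pseudogenes, many of which derive from transposons. Of the members 26.0% in ndx1-4 and 24.5% in Col-0 lay within 2 kb of one, against 3.70% of the arm peaks in ndx1-4 and 3.58% in Col-0, yet only 7 members in ndx1-4 and 9 in Col-0 shared a base with one. The windows themselves held 3404 pseudogenes beside 1928 protein-coding genes, and unpeaked sequence there was not measured for nearness to pseudogenes or for repeats. These values therefore do not set members apart from other genic sequence of the windows. The sequence of members was also more often repeated than that of arm peaks. Words of 31 bases that occur more than once in the reference made up a mean of 8.75% of ndx1-4 members and 8.25% of Col-0 members, beside 2.11% in ndx1-4 and 2.17% in Col-0 in the arms. Even so 66.8% of members in both lists held no such word. Over 50% of the words were multi-copy in 32 members in ndx1-4 and 31 in Col-0. Of these 78.1% had a partner in ndx1-4 and 83.9% in Col-0, against 92.0% in ndx1-4 and 88.7% in Col-0 of the members with no multi-copy word. Members with some multi-copy words, up to 50%, had a partner in 93.0% of cases in ndx1-4 and 87.9% in Col-0. How reads with several possible positions were treated is not given in the sources used here, and its part in these shares was not tested.

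A few members matched organelle DNA. As background, the pericentromere of chromosome 2 carries a large nuclear copy of the mitochondrial genome. In 5 members in ndx1-4 and 1 in Col-0 every 31-base word also occurred in the chloroplast or mitochondrial genome. They lay on chromosome 2 between 3281801 and 3485400, in the uncharacterized genes AT2G07678, AT2G07637, AT2G07644, AT2G07825 and AT2G07806, with scores of 62, 64, 83, 69 and 59 in ndx1-4. Only the member of AT2G07644 had a partner, of score 73 in Col-0. Reads of organelle DNA or of its hybrids cannot be told apart from reads of these nuclear copies, which touches 4 of the 45 ndx1-4 members without a partner. These 4 are among the 7 ndx1-4 members without a partner in which most words were multi-copy.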

How the data were processed

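DRIP-seq was done on cross-linked, sonicated nucleic acid of 10-day-old seedlings. The deposited values were 1 peak list per genotype with a whole-number score per peak, which the authors gave without stating a unit. The submitters' processing notes name Bowtie2, SAMtools, Picard, deepTools and MACS2 and the build TAIR10. Versions, the calling threshold and how the libraries of a genotype entered the calls are not given in the sources used here. A list from deeper libraries can hold more peaks, and depth is unknown. Peaks were read with the RefSeq annotation of TAIR10.1. In each list 2 peaks ended exactly at a chromosome end and 0 passed one. Analyses used Python 3.11.15 and numpy 2.4.6, and the overlap code was tested on simulated data. Bases were classed as CDS, 5' UTR, 3' UTR or intron in that order. Any peak of a list, the border-crossing one included, counts in shares of bases. Start and end positions of neighbouring protein-coding genes count too. The interval of a ratio of numbers is the Wilson interval of the ndx1-4 share, turned into a ratio. Named were, per list, the 5 highest-scoring, the 5 longest and the 5 highest-scoring members without partner, the 5 genes with most members, the 5 pairs with the largest gain and the 5 with the largest loss of length, and a list of 18 genes. Members and lists were chosen with earlier results of these data known. No test was made between single lists.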

Additional observations from a re-analysis of the deposited data

How the results depend on the processing

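No paired analysis was possible because the 2 lists carry no replicate numbers and no result came from a test. Of 180 values under the 10 alternatives, 146 stayed within 1.5 times (counts) or inside the counting interval (shares, ratios, medians) and 34 moved. The ratio of numbers lay between 0.898 and 0.972 and that of bases between 0.841 and 0.927, both below 1 throughout. All settings draw on the same 2 lists, so this adds no independent evidence. Over the whole lists the ratios were 0.956 in numbers and 0.931 in bases. The counting interval of the main ratio of bases, 0.811 to 1.03, includes 1. With windows shrunk by 0.5 Mb at both ends there were 307 members over 128240 bases in 283 genes in ndx1-4, and 316 over 138400 bases in 289 genes in Col-0. The higher-scoring 50% of each list left 260 members over 127660 bases in 253 genes in ndx1-4 (median length 460 bases, 35.8% over a gene start), and 274 over 145080 bases in 266 genes in Col-0 (480 bases, 33.9%). Of all members, 29.2% in ndx1-4 and 28.6% in Col-0 covered a gene start. Peaks of at least 500 bases left 132 members over 86080 bases in 137 genes in ndx1-4 (median 620 bases, partners for 88.6%, gene starts in 44.7%, 5' UTR share of covered gene bases 26.2%). In Col-0 they left 147 over 102360 bases in 151 genes (640 bases, 79.6%, 43.5%, and a 3' UTR share of 4.66%). Under this setting a partner had itself to reach 500 bases. These 2 partner shares thus do not show how many long members lacked any peak in the other list. With at least 50% of the peak in gene bodies 23.2% in ndx1-4 and 22.6% in Col-0 covered a gene start. With peaks over at least 20% of the gene body 161 genes counted in ndx1-4 and 187 in Col-0. These settings keep fewer or longer peaks by construction. Windows set by gene density, merging, and leaving out multi-copy members or those over a pseudogene moved no value past its limit. Without depth, replicates or a known score unit, no difference between the lists can be assigned to genotype.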
